A study of Mus musculus with 4 samples.

Results

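DNA replication and mitosis genes are the genes whose products copy the chromosomes in S phase and separate them in M phase. A fixed list of 45 such genes was followed in mouse embryonic stem (ES) cells with and without Klf5, a zinc finger transcription factor, with 21 of them taken as S-phase genes and 24 as mitotic genes. Members were found by gene symbol in the platform annotation, which gave 100 probe sets (an Affymetrix probe set is a group of short probes for one transcript) for 44 genes. Cyclin B1 (Ccnb1) was not the symbol of any row used here and its level was not analysed here. Each gene is represented by its brightest probe set (those named _x_at came last), and all 44 passed the filter on dim probe sets. In all, 13023 genes were tested in the same way.

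The groups were 2 wild-type (WT) clones and 2 Klf5 knockout (KO) clones, with 1 array of total RNA for each clone. Both genotypes grew under the same conditions, in ES medium with serum and the cytokine LIF, which keeps mouse ES cells undifferentiated. The labels do not say how the KO clones were made, which part of Klf5 was removed, or whether the cultures were grown side by side. The series set out to find genes that were lower in KO cells. Intensities are quantile normalized and are given for clone 1 and then clone 2 of each genotype. P-values rest on the spread between the 2 clones of each genotype, moderated by limma toward the spread of all kept probe sets. This prior spread carries most of the weight (degrees of freedom 6.87, against 2 from a gene's own arrays). A WT or KO clone may also carry differences of its own.

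ES cells divide quickly, with a short G1 phase, so that a large share of a culture is in S phase. Origins of replication are licensed when Cdc6 and Cdt1 load the MCM helicase, and cyclin E with Cdk2 and E2F factors drives entry into S phase. Cyclin A and B with Cdk1, Polo and Aurora kinases then carry the cell through mitosis, under a checkpoint that waits until all kinetochores are attached to the spindle. Many S-phase promoters hold E2F sites, and many mitotic promoters hold a CHR (cell cycle genes homology region), the element bound by the MuvB complex, with CCAAT boxes, the element of NF-Y, nearby.

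Klf5 itself separated the arrays as labelled, at 2398 and 1782 (WT) against 34.8 and 49.9 (KO), a fall of 5.17 ± 0.22 on the log2 scale (adjusted p = 3.3e-05). ES cell markers were bright in both genotypes: 14 were measured, 0 rose and 0 fell (limma, adjusted p under 0.05; 1 higher and 2 lower at an unadjusted p under 0.05), and Pou5f1 (Oct4) read 2887 and 3141 (WT) against 2327 and 2566 (KO). The median log2 fold change of these markers was -0.18, with 10 of 14 negative, and both KO clones were lower for 6 and higher for 2 of them. Of 24 measured fibroblast and feeder cell markers, however, 19 rose in KO clones, and their sum was 10824 and 7715 (WT) against 24142 and 25386 (KO). None of the 24 read 0 on an array. With 1 array left out 11 (without KO clone 1) to 19 (without WT clone 1) of them rose, with 14 without WT clone 2 and 12 without KO clone 2. The count was 9 with a pseudocount of 1 or with no filter on dim probe sets and 22 with a pseudocount of 64. Trophectoderm and endoderm markers stayed dim, with a sum of 399 to 486 over 9 genes on each array. RNA quality was read from the beta-actin controls, whose 3′ probe set exceeded the 5′ one by a log2 value of 0.48 and 0.44 (WT) and 0.75 and 0.52 (KO). By beta-actin, both KO clones thus lay above both WT clones. The same difference for Gapdh was -0.32 and -0.32 (WT) and -0.33 and -0.29 (KO), which did not separate the genotypes. The deposited intensities of WT clone 1 were the brightest, with a trimmed mean of 226 against 137 to 150 on the other arrays. In bulk RNA, fewer cells of a type and less RNA per cell cannot be told apart. The part of these differences in the values that follow was not tested.

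Most of the replication and mitosis genes read modestly lower in the KO clones, and few of them passed the test. Of the 44 genes, 2 fell, 0 rose and 42 did not pass (limma, Benjamini-Hochberg adjusted p under 0.05 over all kept probe sets). The genes that fell were Pola1, the catalytic subunit of DNA polymerase alpha, and Mki67, which encodes the proliferation marker Ki-67. Among all 13023 genes tested, 4.28% passed in either direction, 2.94% higher and 1.34% lower in KO clones. The members' 4.55% is near the share for either direction. It rests on 2 genes that were both lower, where the share of all genes is 1.34%. At an unadjusted p under 0.05 there were 15 members lower and 0 higher (34.1%), beside 10.6% lower and 10.9% higher of all genes.

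Without regard to the test, 30 of the 44 genes had both KO clones below both WT clones, 6 had them above (Rfc3, Tyms, Birc5, Bub1, Mad2l1 and Cenpa, of which Rfc3, Birc5, Bub1 and Cenpa have a negative fold change without quantile normalization) and 8 overlapped. The share of all genes tested was 29.7% for lower and 25.9% for higher, against 68.2% and 13.6% of the members. The median log2 fold change (KO minus WT) was -0.30 for the 21 S-phase genes and -0.36 for the 23 measured mitotic genes, against -0.024 over all genes tested. For 31 of the 44 genes the estimate lay within 0.5 of 0. Of 29 genes with more than 1 probe set past the filter, 22 had all of them of one sign and 7 had one of opposite sign (Ccne1, Tyms, Foxm1, Bub1b, Ttk, Tpx2 and Top2a). Since the members are brighter than most genes, the 1770 other genes between the members' quartiles of level (normalized intensity 661 to 2216) were also read, a comparison chosen after the data were seen. Their median was -0.028, with 33.5% lower and 28.5% higher in both KO clones. By the test, 44 of these 1770 genes passed, and 0.734% passed as lower.

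**Figure D1:**
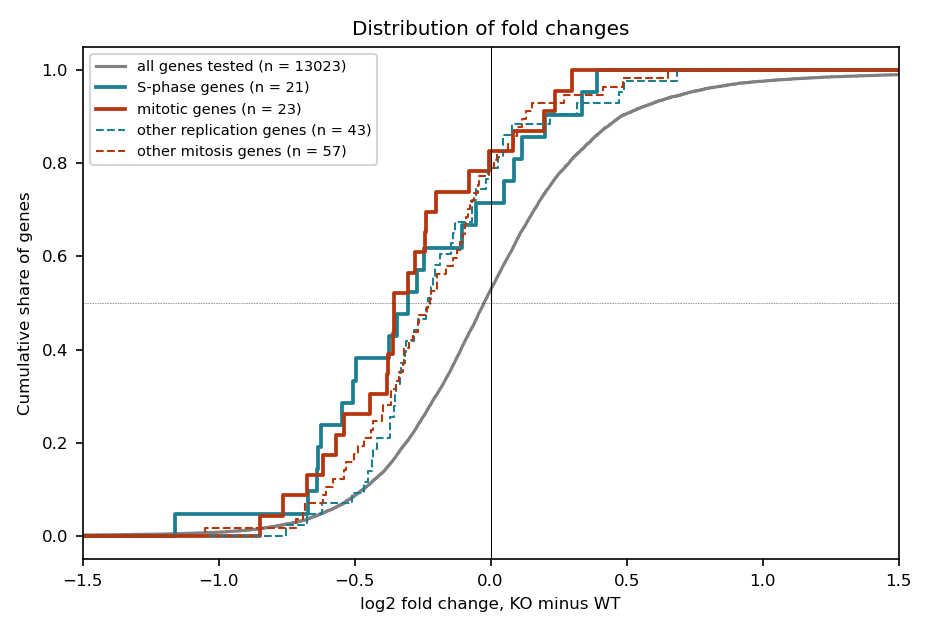
Cumulative share of genes (vertical axis) against the log2 fold change, KO minus WT (horizontal axis), for all 13023 genes tested, the S-phase and mitotic genes (solid lines) and the lists of other replication and mitosis genes (dashed lines). The curves of both member groups and both dashed lists lie to the left of the curve of all genes, with medians from -0.36 to -0.22 against -0.024.

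The shift was uneven between the KO clones. KO clone 1 read below KO clone 2 for 15 of 21 S-phase and 18 of 23 mitotic genes, and it was the lowest of the 4 arrays for 13 and 17 of them. Set against the WT mean, the median of the S-phase genes was -0.35 in KO clone 1 and -0.23 in KO clone 2, and that of the mitotic genes was -0.42 and -0.21. Over all genes tested it was -0.042 and -0.0014. Across all kept probe sets, KO clone 1 correlated with WT clones 1 and 2 at 0.964 and 0.961, and KO clone 2 at 0.973 and 0.971. How many of all genes read lowest in KO clone 1 was not counted, so the unevenness may not be particular to the members. The WT clones did not differ in one direction: WT clone 1 read below WT clone 2 for 9 of the S-phase and 15 of the mitotic genes, with a median difference (clone 1 minus clone 2) of 0.028 and -0.048. Without KO clone 1 the medians were -0.22 and -0.21. The beta-actin ratio was also highest in KO clone 1, at 0.75. The Gapdh ratio was -0.33 there and -0.32 to -0.29 on the other arrays. The summed fibroblast markers were similar in both KO clones. The part of RNA quality was not tested.

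**Figure D2:**
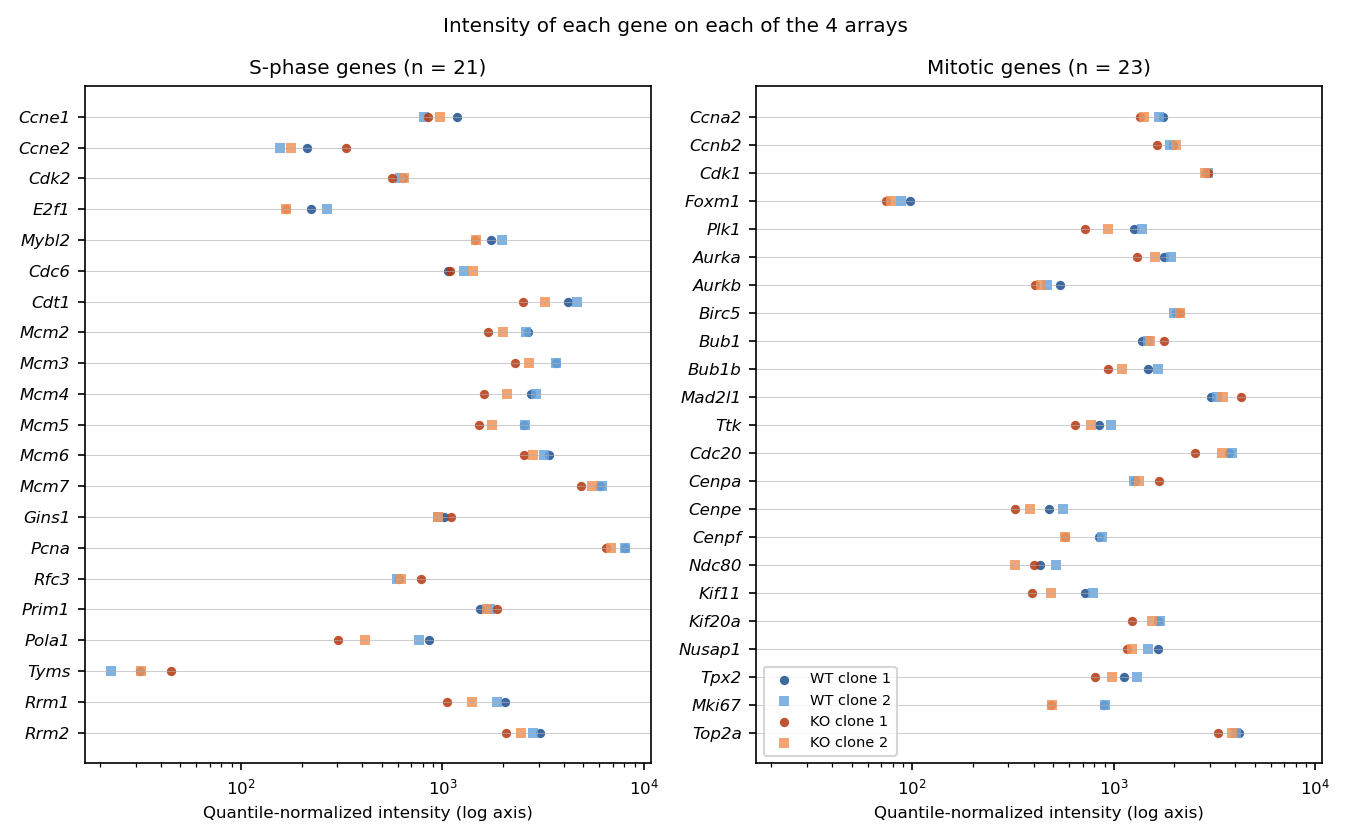
Quantile-normalized intensity (log axis) of each gene on each of the 4 arrays, S-phase genes on the left and mitotic genes on the right, 1 point per clone. The genes span from 22.6 for Tyms to 8056 for Pcna, and both KO clones (red and orange) lie to the left of both WT clones (blue) for 30 of the 44 genes.

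What the members share beyond their function can be read from their promoters. RefSeq promoter windows (GRCm38.p6, 250 bases before to 50 after the start site) were matched for 37 of the 45 genes, 18 S-phase and 19 mitotic, Ccnb1 included. The letters searched on both strands were TTTGGCGC, TTTCCCGC, TTTGGCGG and TTTCCCGG for E2F, TTTGAA and TTCGAA for the CHR, and CCAAT for the CCAAT box. No match of one kind overlapped a match of another. E2F letters were present in 9 of 18 S-phase genes (50%) and 1 of 19 mitotic genes (5.26%, Birc5), against 6.74% of the 10506 tested genes with a window. CHR letters were present in 14 of 19 mitotic genes (73.7%) and 3 of 18 S-phase genes (16.7%), against 16.2% of the tested genes. CCAAT letters were common in both groups, in 12 S-phase genes (66.7%) and 15 mitotic genes (78.9%), against 42.9%. In 13 mitotic genes both CHR and CCAAT letters occurred, and in all 13 of these windows a CHR followed a CCAAT box. The shortest such distance in a window, from start to start, had a median of 35 bases and ran from 9 to 153. The E2F shares depend on the 4 spellings searched and on the start site that places each window. A gene without such letters here, as E2f1, may hold them elsewhere, which was not searched.

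The windows below show, in lower case with E2F, CHR and CCAAT letters in capitals, the S-phase gene that fell (Pola1), a helicase gene that read lower in both KO clones (Mcm3) and a licensing gene that did not (Cdc6). They lie at chrX:93632106-93632405 (Pola1, minus strand), chr1:20820263-20820562 (Mcm3, minus strand) and chr11:98907901-98908200 (Cdc6, plus strand), and each is written 5′ to 3′ along the gene.
Pola1: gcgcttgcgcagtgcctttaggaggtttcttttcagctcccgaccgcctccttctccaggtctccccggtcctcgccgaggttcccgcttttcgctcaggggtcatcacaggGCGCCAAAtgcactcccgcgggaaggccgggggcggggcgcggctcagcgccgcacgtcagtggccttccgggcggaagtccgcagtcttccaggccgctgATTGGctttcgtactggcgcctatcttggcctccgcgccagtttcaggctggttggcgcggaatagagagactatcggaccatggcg
Mcm3: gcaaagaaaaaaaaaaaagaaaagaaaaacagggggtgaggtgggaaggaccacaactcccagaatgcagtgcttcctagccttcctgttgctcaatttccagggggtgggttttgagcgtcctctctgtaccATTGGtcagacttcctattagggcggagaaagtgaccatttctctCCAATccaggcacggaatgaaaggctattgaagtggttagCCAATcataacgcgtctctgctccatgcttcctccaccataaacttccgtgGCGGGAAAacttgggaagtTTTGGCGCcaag
Cdc6: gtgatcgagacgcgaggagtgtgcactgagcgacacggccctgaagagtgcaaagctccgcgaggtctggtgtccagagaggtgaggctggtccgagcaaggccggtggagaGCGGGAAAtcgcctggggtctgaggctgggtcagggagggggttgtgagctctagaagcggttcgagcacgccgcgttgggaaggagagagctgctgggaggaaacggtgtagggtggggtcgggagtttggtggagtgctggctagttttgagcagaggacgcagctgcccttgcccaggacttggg
The Pola1 window has E2F letters on the minus strand of the gene, 138 bases before the start site, Mcm3 has them after the start, at 19 and 38 bases, and Cdc6 has them at 138 bases before it. Cdc6 has no CCAAT letters in this window.

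For the mitotic genes, the windows are those of the gene that fell (Mki67), the gene with the next largest difference (Kif11) and the kinase gene whose estimate was closest to 0 (Cdk1). They lie at chr7:135716330-135716629 (Mki67, minus strand), chr19:37376132-37376431 (Kif11, plus strand) and chr10:69352863-69353162 (Cdk1, minus strand).
Mki67: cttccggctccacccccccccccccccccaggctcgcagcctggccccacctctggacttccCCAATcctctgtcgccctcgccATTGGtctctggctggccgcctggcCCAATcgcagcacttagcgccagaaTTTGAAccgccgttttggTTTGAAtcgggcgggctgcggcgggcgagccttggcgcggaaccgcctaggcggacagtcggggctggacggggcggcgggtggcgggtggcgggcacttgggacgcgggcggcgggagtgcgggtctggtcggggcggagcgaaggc
Kif11: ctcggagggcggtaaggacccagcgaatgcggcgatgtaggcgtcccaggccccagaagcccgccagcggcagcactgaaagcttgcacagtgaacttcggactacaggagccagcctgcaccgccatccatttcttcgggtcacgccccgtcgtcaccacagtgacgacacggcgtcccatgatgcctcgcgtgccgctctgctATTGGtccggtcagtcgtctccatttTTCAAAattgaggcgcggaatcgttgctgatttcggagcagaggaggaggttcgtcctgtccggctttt
Cdk1: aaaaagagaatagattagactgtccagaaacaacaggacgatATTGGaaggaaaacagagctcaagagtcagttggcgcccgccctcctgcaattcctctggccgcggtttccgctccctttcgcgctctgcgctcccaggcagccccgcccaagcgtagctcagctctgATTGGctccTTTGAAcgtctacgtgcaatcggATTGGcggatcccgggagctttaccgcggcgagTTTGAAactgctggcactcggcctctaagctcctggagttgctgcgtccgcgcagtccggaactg
Mki67 and Cdk1 each hold CCAAT letters 3 times and CHR letters 2 times, and Kif11 holds each of them 1 time. The median log2 fold change was -0.30 in the 9 S-phase genes with E2F letters and -0.34 in the 9 without them in the window (E2f1 among these). It was -0.36 in the 14 mitotic genes with CHR letters and -0.15 in the 4 measured ones without. By CCAAT letters it was -0.34 in 12 S-phase genes with them and -0.22 in 6 without. In mitotic genes it was -0.36 in 14 with them and -0.15 in 4 without. Birc5, Mad2l1 and Nusap1 lack both CHR and CCAAT letters, so the mitotic splits by CHR and by CCAAT are nearly the same. Birc5, the single mitotic gene with E2F letters, had 0.082, against a median of -0.36 in the 17 measured ones without.

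**Figure D3:**
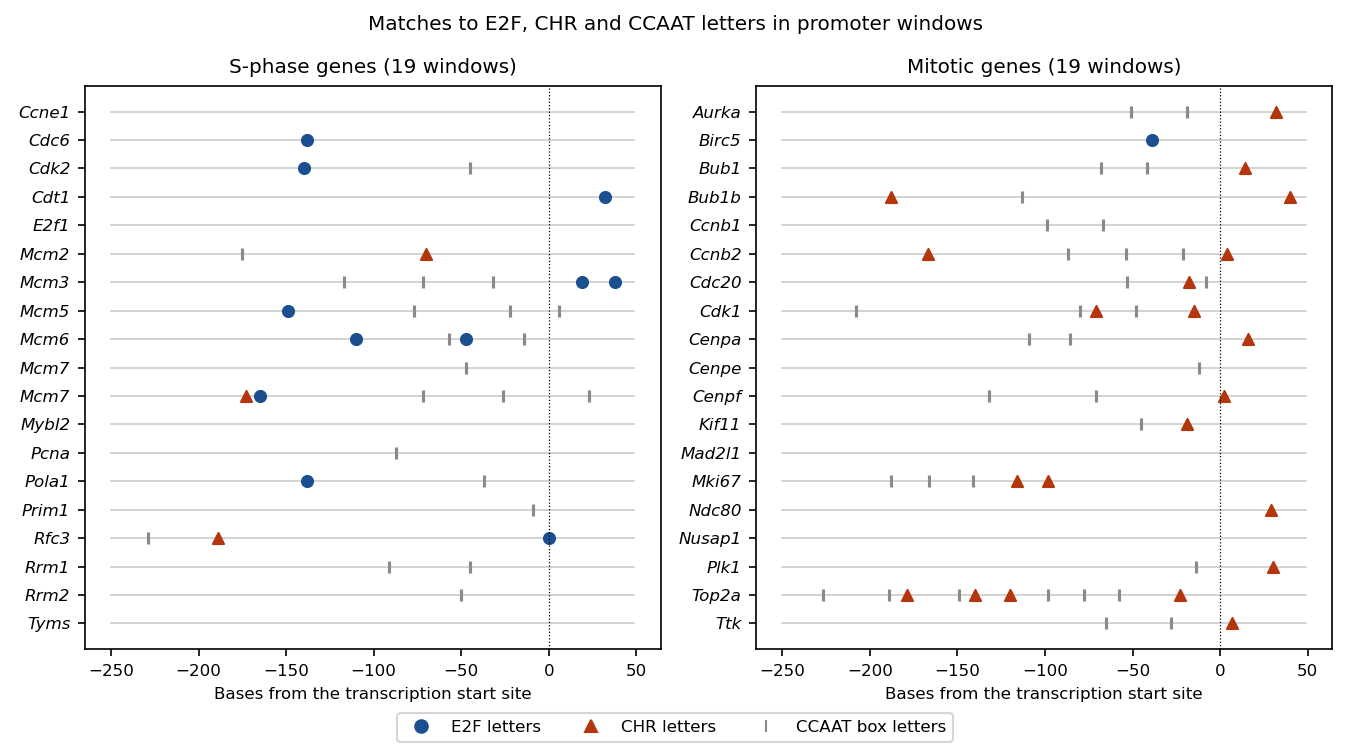
Positions of E2F (circles), CHR (triangles) and CCAAT (bars) letters in the promoter windows of S-phase and mitotic genes, in bases from the transcription start site (dotted line at 0). Circles lie in 9 of 18 S-phase genes and 1 of 19 mitotic genes, and triangles in 14 of 19 mitotic genes, mostly near the start site and after a CCAAT bar.

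Entry into S phase is driven by cyclin E with its kinase Cdk2, and by the transcription factors E2f1 and Mybl2 (B-Myb). None of these 5 genes passed, and 1 of them had an unadjusted p under 0.05 (E2f1). E2f1, the activator E2F, had an intensity of 223 and 266 (WT) against 168 and 168 (KO), a log2 fold change of -0.50 ± 0.19 (SE, n = 2 arrays per group; adjusted p = 0.18). Mybl2, itself an E2F target, had 1736 and 1966 (WT) against 1445 and 1461 (KO) (-0.34 on the log2 scale, adjusted p = 0.32). Both KO clones lay below both WT clones for each of these factors. The cyclin and kinase genes overlapped between genotypes: Ccne1 had a log2 fold change of -0.11 and Cdk2 of -0.055 (95% confidence interval -0.47 to 0.36). Another, _x_at probe set of Ccne1 read the other way, at 0.42 (adjusted p = 0.29).

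Ccne2, the second cyclin E gene, had the largest positive value of the S-phase genes. Its intensity was 212 and 156 (WT) against 333 and 177 (KO), with 0.39 ± 0.29 on the log2 scale (adjusted p = 0.48). The value came from KO clone 1, since KO clone 2 lay between the WT clones. Without KO clone 1 the log2 fold change was -0.037.

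Among the licensing genes, Cdt1 and the 6 subunits of the MCM helicase ring, Mcm2 to Mcm7, had both KO clones below both WT clones, while Cdc6 overlapped. Of these 8 genes 0 passed (5 had an unadjusted p under 0.05), with a median log2 fold change of -0.53. Cdt1, the loading factor, had an intensity of 4183 and 4672 (WT) against 2507 and 3225 (KO) (-0.63 ± 0.20, adjusted p = 0.12). Mcm5 had 2529 and 2564 (WT) against 1519 and 1754 (KO) (-0.64 ± 0.18, adjusted p = 0.097). Mcm4 had 2742 and 2920.3 (WT) against 1605 and 2092 (KO) (-0.62, adjusted p = 0.13).

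On the probe set that represents each gene, the remaining helicase subunits had a like direction and a smaller size. Mcm3 read 3643 and 3651 (WT) against 2299 and 2697 (KO) (-0.55, adjusted p = 0.14) and Mcm2 2657 and 2586 (WT) against 1692 and 2000.4 (KO) (-0.51, adjusted p = 0.17). Mcm6 had a log2 fold change of -0.30 ± 0.18 and Mcm7 of -0.24 ± 0.18, with adjusted p = 0.38 and 0.48. The ring takes 1 copy of each subunit. Among these probe sets, the 95% confidence intervals of the largest and the smallest value, -1.05 to -0.22 for Mcm5 and -0.66 to 0.17 for Mcm7, overlap. Other probe sets of these genes were of the same sign, but the order by size depended on the one taken. A brighter, _x_at probe set of Mcm5 had -0.33, one of Mcm4 -0.36 and another of Mcm3 -0.71. One further probe set of Mcm3 fell, from 1727 and 2050.3 (WT) to 942 and 1109.9 (KO), at -0.87 ± 0.19 on the log2 scale (adjusted p = 0.046). That call was lost with any 1 array left out (adjusted p of 0.059 to 0.24, the latter with KO clone 1 absent). A dim probe set of Mcm3 had -0.064 (adjusted p = 0.89). A second Mcm7 probe set had -0.56 (adjusted p = 0.14).

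Cdc6, the ATPase that loads the helicase together with Cdt1, had 1064 and 1278 (WT) against 1085 and 1414 (KO) and a log2 fold change of 0.086 (95% confidence interval -0.38 to 0.56). The clones of each genotype interleaved, and the sign of Cdc6 changed with the processing.

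At the replication fork, Pola1 fell and the other 4 members did not pass. Pola1 read 859 and 761 (WT) against 303 and 411 (KO), a fall of 1.16 ± 0.21 on the log2 scale (2.23-fold, adjusted p = 0.019). Both KO clones lay far below both WT clones, with KO clone 1 the lower. Its other probe set was too dim to be tested. The call held without KO clone 2, and was lost without WT clone 1, WT clone 2 or KO clone 1 (adjusted p = 0.060, 0.051 and 0.14). Over all alternatives the adjusted p ranged from 0.00078 to 0.14 and the log2 fold change from -1.49 to -0.95.

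Pola1 works in a complex of 4 proteins, and its partners did not pass. Prim1, the catalytic primase subunit that makes the RNA primer, had 1541 and 1718 (WT) against 1875 and 1661 (KO) (0.12, adjusted p = 0.77). Pola2, the regulatory subunit of the polymerase, had 377 and 419 (WT) against 227 and 232 (KO) (-0.75 ± 0.18, adjusted p = 0.057), and both KO clones were lower. Prim2, the second primase subunit, had -0.07 (adjusted p = 0.88) with overlapping clones. Whether the change of Pola1 differs from that of Prim1 was not tested.

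Pcna, the sliding clamp, was the brightest member, at 8056 and 8056 (WT) against 6508 and 6859 (KO). Both KO clones were lower, and the log2 fold change was -0.27 ± 0.18 (adjusted p = 0.43). The clamp loader subunit Rfc3 read 609 and 597 (WT) against 779 and 619 (KO) (0.20 ± 0.19, adjusted p = 0.60), with KO clones higher by a small margin for clone 2. The other subunits of the loader had negative values that did not pass, at -0.45 for Rfc1, -0.27 for Rfc2, -0.15 for Rfc4 and -0.067 for Rfc5 (adjusted p = 0.22, 0.47, 0.73 and 0.87). Both KO clones were lower for Rfc1, Rfc2 and Rfc5, and Rfc4 overlapped. Gins1, a subunit of the GINS complex that completes the active helicase, had 0.051 (95% confidence interval -0.37 to 0.47) with overlapping clones. Its partners Gins2, Gins3 and Gins4 had 0.32, -0.31 and 0.028 (adjusted p = 0.36, 0.41 and 0.95).

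Among the enzymes of deoxynucleotide supply, both subunits of ribonucleotide reductase read lower. Rrm1, the large subunit, had 2039.5 and 1859.9 (WT) against 1054 and 1402 (KO) (-0.67 ± 0.20, adjusted p = 0.11), and a second probe set gave -0.73 (adjusted p = 0.091). Rrm2, the small subunit, had 3036 and 2814 (WT) against 2069 and 2457 (KO) (-0.37 ± 0.19, adjusted p = 0.30). In both genes the KO clones lay below both WT clones. Tyms, thymidylate synthase, was read only on dim probe sets, one at 31.6 and 22.6 (WT) against 44.8 and 32.0 (KO) (0.34 ± 0.21, adjusted p = 0.40) and another of opposite sign, at -0.39 (adjusted p = 0.26), so its level is poorly measured here. A further row names Tyms together with its pseudogene and was not used.

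Of the 4 measured genes of mitotic cyclins, their kinase and Foxm1, 0 passed, and 0 had an unadjusted p under 0.05. Cdk1, the mitotic kinase, read 2868 and 2929 (WT) against 2917 and 2849 (KO), a log2 fold change of -0.0074 with a 95% confidence interval of -0.41 to 0.39. Its partner Ccnb2 (cyclin B2) had 1972 and 1898 (WT) against 1638 and 2042 (KO) (-0.081, adjusted p = 0.85), and the clones overlapped. Ccna2 (cyclin A2), which acts in S phase and at the entry into mitosis, had 1748 and 1676 (WT) against 1349.5 and 1415 (KO) (-0.31 ± 0.18, adjusted p = 0.37). Foxm1, a transcription factor of mitotic genes, was dim, at 74.0 to 97.8 over the 4 arrays, with -0.24 (adjusted p = 0.49), and another probe set had 0.18 (adjusted p = 0.61).

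**Figure D4:**
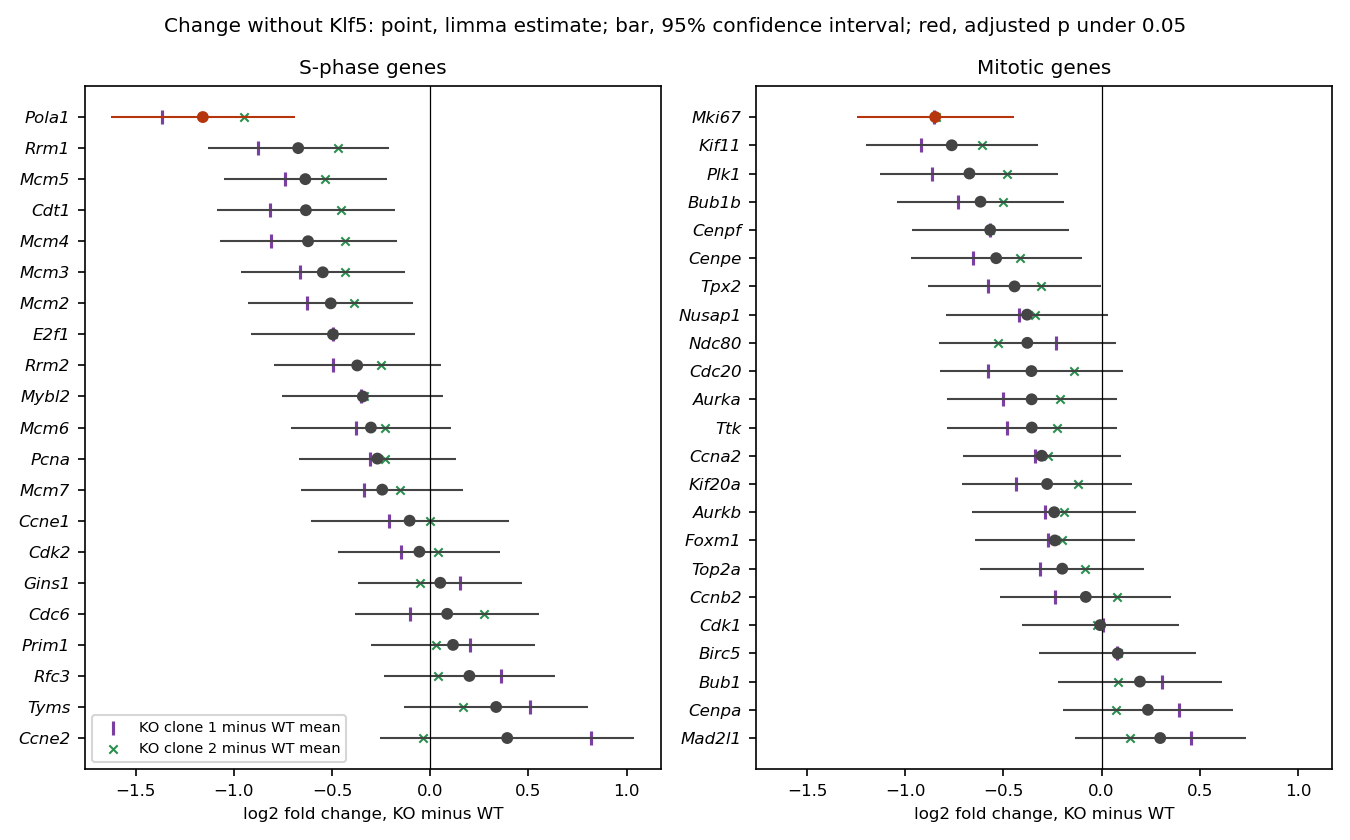
Log2 fold change, KO minus WT, of each gene: point and bar, limma estimate and 95% confidence interval (red, adjusted p under 0.05); vertical mark and cross, KO clones 1 and 2 each against the WT mean. Pola1 (-1.16) and Mki67 (-0.85) lie furthest to the left, and 34 of the 44 estimates are below 0.

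Mki67 fell and Top2a did not pass among the genes of the mitotic chromosome. Mki67, whose protein coats mitotic chromosomes, read 892 and 905 (WT) against 490.4 and 494 (KO), a fall of 0.85 ± 0.18 on the log2 scale (1.8-fold, adjusted p = 0.035). Clones of the same genotype gave nearly equal values, and the genotypes were far apart. The gene has a single probe set. With any 1 array left out the call was lost (adjusted p of 0.098 to 0.17, the highest with KO clone 1 absent), at log2 values from -0.86 to -0.84, and over all alternatives the adjusted p ranged from 0.0028 to 0.17. Top2a, topoisomerase II alpha, which untangles sister chromatids, read 4163 and 4056 (WT) against 3297 and 3874 (KO) (-0.20, adjusted p = 0.58). A dimmer probe set of Top2a pointed the other way, at 0.73 ± 0.28 (adjusted p = 0.19), with KO clone 1 at 401 against 150 to 212 on the other arrays.

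Mitotic kinases and the chromosomal passenger complex gave 3 genes lower in both KO clones and 1 higher, with 0 past the threshold (1 at an unadjusted p under 0.05). Plk1, the Polo kinase, had 1267 and 1378 (WT) against 719 and 941 (KO) (-0.67 ± 0.20, adjusted p = 0.11). Aurka, the spindle pole Aurora kinase, had 1773 and 1925 (WT) against 1301 and 1593 (KO) (-0.36 ± 0.19, adjusted p = 0.33). Aurkb, the kinase of the passenger complex, had -0.24 (adjusted p = 0.50), and Birc5 (survivin), which targets that complex to centromeres, 0.082 (95% confidence interval -0.32 to 0.48). Incenp, the scaffold of the complex, had -0.53 (adjusted p = 0.14), and Cdca8 (borealin) -0.20 (adjusted p = 0.65).

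The spindle checkpoint genes went both ways, with 3 lower and 2 higher in both KO clones and 0 past the threshold (1 at an unadjusted p under 0.05). Bub1b (BubR1), an inhibitor of the anaphase-promoting complex, had 1471 and 1649 (WT) against 933 and 1093 (KO) (-0.62 ± 0.19, adjusted p = 0.11). A second bright probe set of Bub1b read alike, at -0.66 (adjusted p = 0.087), and one close to the filter had 0.12. Ttk (Mps1), the kinase that starts the checkpoint, had -0.36 ± 0.19 (adjusted p = 0.33), and a dim probe set of it had 0.11 (adjusted p = 0.79). Cdc20, the activator of the anaphase-promoting complex that the checkpoint restrains, had -0.36 ± 0.20 (adjusted p = 0.36).

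On the other side, Mad2l1 (Mad2), which holds Cdc20 inactive, had the largest positive value of the mitotic genes. Its intensity was 3033 and 3239.5 (WT) against 4297 and 3466 (KO) (0.30 ± 0.19, adjusted p = 0.42). It was the single member that was positive under every alternative processing. Bub1, the checkpoint kinase at kinetochores, read 1384 and 1470.3 (WT) against 1768 and 1513 (KO) (0.20 ± 0.18, adjusted p = 0.60).

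Of the 4 kinetochore genes, 3 read lower in both KO clones and 0 passed (2 at an unadjusted p under 0.05). Cenpf, a large protein of the outer kinetochore, had 841 and 870.0 (WT) against 572 and 572 (KO) (-0.57 ± 0.18, adjusted p = 0.12). Cenpe, the kinetochore motor, had 479 and 558 (WT) against 322 and 383 (KO) (-0.54 ± 0.19, adjusted p = 0.16). Further probe sets of these genes were of the same sign, down to -1.02 for Cenpe (adjusted p = 0.15) and -0.99 for Cenpf (adjusted p = 0.14), and in both WT clone 1 was far above WT clone 2 (334 against 129 for Cenpe, and 226 against 91.8 for Cenpf).

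Cenpa, the histone variant that marks centromeres, had 1272 and 1259.7 (WT) against 1671 and 1335 (KO) (0.24 ± 0.19, adjusted p = 0.53), with the KO clones higher. Ndc80, which binds spindle microtubules, had 432 and 516 (WT) against 400.3 and 323 (KO) (-0.38 ± 0.20, adjusted p = 0.32). Its direct partner Nuf2 read the other way, at 0.65 ± 0.20 (adjusted p = 0.11), as did Spc25 (0.49, adjusted p = 0.23) of the same complex, while Spc24 had -0.10 (adjusted p = 0.79). None of the 4 passed, and the difference between them was not tested.

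All 4 genes of spindle motors and spindle assembly were lower in both KO clones, and 0 passed (2 at an unadjusted p under 0.05). Kif11 (Eg5), the motor that pushes the spindle poles apart, had 720.1 and 788 (WT) against 391 and 489 (KO) (-0.76 ± 0.19, adjusted p = 0.069). Its other probe sets had -0.45 and -0.41. Tpx2, the activator of Aurora A on the spindle, had 1121 and 1309.8 (WT) against 805 and 976 (KO) (-0.44 ± 0.19, adjusted p = 0.24), and a dim probe set of it was of opposite sign (0.089). Nusap1, a microtubule binding protein, had -0.38 and Kif20a (Mklp2), a motor of cytokinesis, -0.28 (adjusted p = 0.28 and 0.45).

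Other genes of the same pathways, taken from lists, gave a like picture. Of 43 measured further replication genes 0 passed (9 lower and 2 higher at an unadjusted p under 0.05), the median was -0.23, and both KO clones lay below both WT clones for 26 and above them for 4. Of 57 further mitosis genes 0 passed (12 lower and 2 higher at an unadjusted p under 0.05), the median was -0.22, and 34 were lower and 6 higher. The origin recognition complex marks origins before licensing. Its subunit Orc4 had 646 and 574 (WT) against 1152 and 849 (KO) (0.69 ± 0.21, adjusted p = 0.11) and Orc5 0.49 (adjusted p = 0.18), while Orc1, Orc2, Orc3 and Orc6 had -0.054, 0.045, -0.0081 and 0.22.

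Among 18 E2F, RB and MuvB regulators, 1 fell, 0 rose and 17 did not pass (median -0.16; 5 lower and 0 higher at an unadjusted p under 0.05). The gene that fell was E2f3, an activator E2F like E2f1. It read 311 and 329 (WT) against 157 and 181 (KO), a fall of 0.87 ± 0.18 on the log2 scale (1.82-fold, adjusted p = 0.036). That call was lost with any 1 array left out (adjusted p of 0.081 to 0.20, the latter with KO clone 1 absent), with a pseudocount of 1, with no filter and in the values as deposited. The other activator E2f2 had -0.65 (adjusted p = 0.11) at a low level, and the late repressor E2f8 -0.88 (adjusted p = 0.089). The family did not go one way: E2f4 and E2f7 had -0.51 and -0.33, and E2f5 and E2f6 had 0.20 and 0.34. For E2f6 both KO clones were higher, and none of these passed. The retinoblastoma gene Rb1, the main inhibitor of E2F, had 0.11 (adjusted p = 0.76).

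The number of members that pass depended on the settings more than their direction did. Under at least 1 of the settings (the one reported and 14 alternatives) 15 of the 44 members passed, and each of these calls was a lower level in KO clones. Beside Pola1 and Mki67 they were Kif11, Cenpf, Plk1, Rrm1, Bub1b, Cdt1, Mcm2, Mcm3, Mcm4, Mcm5, Cenpe, E2f1 and Tpx2. With a pseudocount of 64, 12 members passed, with a variance prior that follows the level 12, and with each array centred on its median 15. With a pseudocount of 1, or with no filter on dim probe sets, 0 passed. The calls over all genes moved as well, from 558 of 13023 as reported. They were 1180 of 13022 with a pseudocount of 64, 1120 of 13023 with the variance prior and 1346 of 13021 after centring. Calls lower in KO clones were 175 as reported and 492, 457 and 928 under those settings. With a pseudocount of 1, 113 of 13007 genes passed, and with no filter 117 of 18193. By sign, 29 members were negative and 1 was positive under every setting, and the other 14 changed sign under at least 1.

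**Figure D5:**
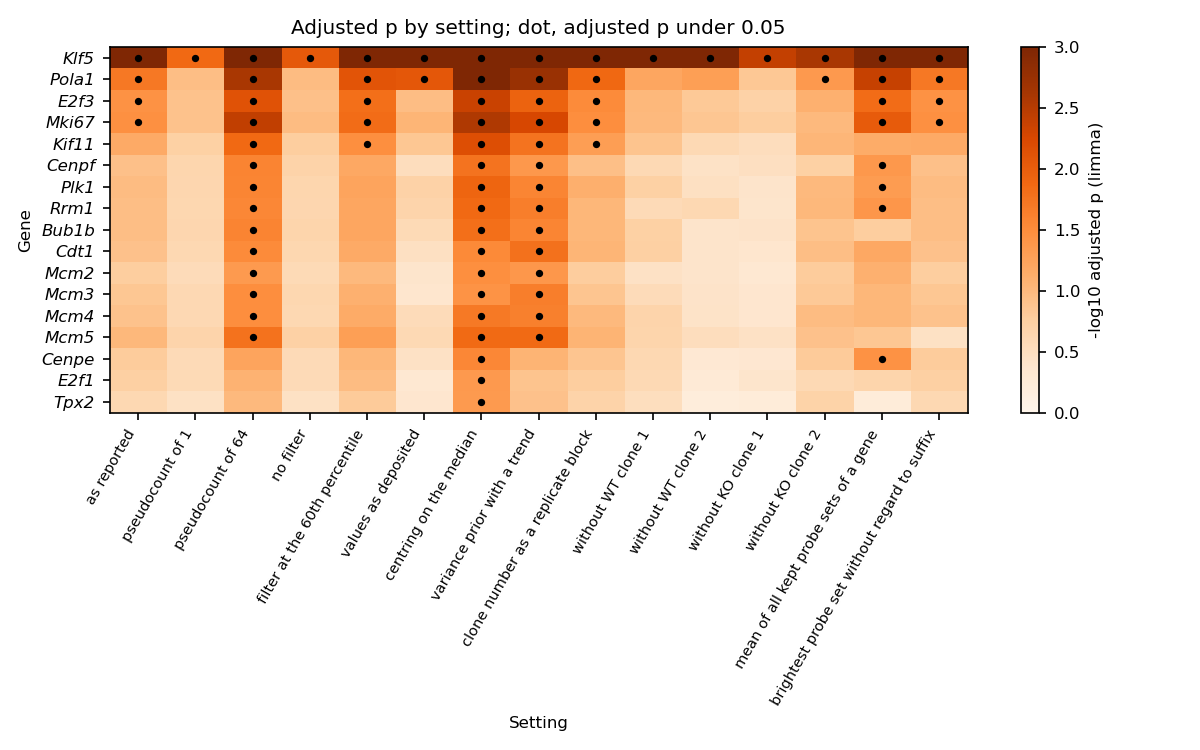
Adjusted p (limma, shown as -log10) of the 15 members that passed under at least 1 setting, and of E2f3 and Klf5. Settings run along the horizontal axis, and a dot marks an adjusted p under 0.05. Among the members, Pola1 passed under 10 of the 15 settings and Mki67 under 8.

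Scaling moved the level of all genes. In the values as deposited the median of all genes was -0.23, and with arrays centred on their medians it was -0.18, shifts of -0.21 and -0.16 from the quantile-normalized data. Relative to all genes, the S-phase median was -0.28 after quantile normalization, -0.33 as deposited and -0.32 after centring, and the mitotic median -0.33, -0.41 and -0.41. Negative values were found for 15 of 21 S-phase and 19 of 23 mitotic genes after quantile normalization and for 19 and 22 with either of the other scalings, so that Cdc6, Gins1, Prim1, Rfc3, Birc5, Bub1 and Cenpa read higher or lower depending on the scaling. Of all genes called, 31.4% were lower in KO clones after quantile normalization, 35.2% as deposited and 68.9% after centring.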

How the data were processed

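Total RNA of 4 clones (2 WT, 2 Klf5 KO) was hybridised to Affymetrix GeneChip arrays, 1 per clone, per the labels' protocols. The deposited table holds 1 linear intensity per probe set and array (45101 rows, 64 of them controls); not given in the sources used here are the authors' probe summary, background correction and scaling. The arrays were quantile normalized, log2(intensity + 16) was taken, 27022 probe sets with a mean above the 40th percentile were kept, and KO was compared with WT in limma 3.58.1 (R 4.3.3; lmFit, eBayes; degrees of freedom: 2 residual, 6.87 prior). Benjamini-Hochberg adjustment covered every kept probe set (threshold 0.05). Errors are moderated SE; the number of arrays limits the precision. Fold changes are on the log2(intensity + 16) scale, so that changes of dim genes are understated, and an intensity is not compared between genes as an amount of RNA. An exact permutation test of 2 against 2 arrays cannot give a two-sided p below 0.33 and was not used. The procedure was checked on simulated data with changes larger than that of any member. Recovery of changes of the members' size was not checked.

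Every member is named by its role, with full statistics for members past the threshold and the 3 largest rises and falls of each phase. Other lists are named by members past the threshold, except that the fibroblast and feeder cell markers that passed are counted and not named. Chosen after their values were seen are the partners of a member's complex (polymerase alpha, GINS, replication factor C, NDC80, chromosomal passengers), the origin recognition complex, Pou5f1, E2f2, E2f4, E2f5, E2f6, E2f7, E2f8 and Rb1. The members and lists were chosen with earlier results of these data known. Symbols come from the platform annotation (34958 rows with 1 symbol, 932 with several, 9160 non-control rows with none); promoter sequences come from RefSeq (GRCm38.p6). Alternatives are a pseudocount of 1 or 64, no filter or the 60th percentile, no normalization, centring on the median, a variance trend, a block for the clone number, leaving out each array, and other choices of probe set. With 1 array left out, the lone array of its group is taken to be as variable as the other group's. The clone numbers do not pair the samples in the labels.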

Additional observations from a re-analysis of the deposited data

How the results depend on the processing

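The count of probe sets past the threshold was 996, and it was 189 with a pseudocount of 1, 190 with no filter, 332 in the values as deposited, 1955 with a variance trend, 2060 with a pseudocount of 64 and 2535 after centring on the median. With 1 array left out it ran from 203 to 653. Of the S-phase members 1 passed, against 0 with a pseudocount of 1 and with no filter, 2 when a gene's probe sets were averaged, 7 with a pseudocount of 64 or a variance trend, 8 after centring, and 0 to 1 with an array left out. Of the mitotic members 1 passed, against 0 with a pseudocount of 1, with no filter, as deposited and with any array left out, 2 with the filter at the 60th percentile, 4 when a gene's probe sets were averaged, 5 with a pseudocount of 64 or a variance trend, and 7 after centring. The S-phase median was -0.556 as deposited and -0.505 after centring, and -0.351 to -0.221 with an array left out; the mitotic median was -0.644, -0.593, and -0.429 to -0.209. Both medians were negative under every alternative run. With the clone number as a replicate block, 1390 probe sets, 1 S-phase and 2 mitotic members passed, Kif11 being added. Deviations of same-numbered clones from their group means correlated at 0.055 across probe sets. A single value over all probe sets cannot show whether same-numbered clones were handled together, and this was not tested. Apart from the shift in scale shown for the scaling alternatives and the smaller number of arrays in the leave-outs, the cause of these changes was not tested. Signal over background limits Tyms most, whose intensities of 22.6 to 44.8 lie nearest to the filter at 13.0.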
